A study of Mus musculus with 2 samples.

Results

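Clusters 7 and 9 held the neutrophils outside the cycling cluster 13 in single cell RNA-seq of mononucleated cells from mouse muscle. The cells were chosen by the authors' cluster numbers, which rest on the measured expression of the same cells. Of 17813 cells in all, 2068 were numbered 7 or 9, with 1067 of 7156 cells in mdx and 1001 of 10657 in cKO. Cluster 7 held 640 cells in mdx and 679 in cKO, and cluster 9 held 427 and 322. Each genotype gave 1 library of cells from limb and diaphragm muscle of 3 mice aged 3 months (12 weeks in a figure legend). The mice cannot be told apart in the table.

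The mdx mice lack dystrophin, the membrane protein missing in Duchenne muscular dystrophy, and served as controls, although the genotype label of this library reads as a wild-type control. The cKO mice were also mdx, and carried Spp1 alleles with loxP sites around exons 2 and 3 together with Cre driven by Lyz2. Lyz2, the lysozyme gene, is active in neutrophils as well as in monocytes and macrophages, so the neutrophils of cKO muscle are themselves among the cells in which Cre can act. The paper reports that the effect of this Cre on Spp1 was mainly in macrophages. The deposited table holds no expression value for any gene, so the deletion of Spp1 was not checked here. For the same reason the markers Ly6g, S100a8, S100a9 and Csf3r were not checked. The name neutrophil rests on the numbers of cells in clusters 7, 9 and 13, which are those of the neutrophils in the study's supporting data.

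Neutrophils are short-lived granulocytes that form in bone marrow, pass through dividing precursor stages, and leave the marrow after division has ended. Ly6g is a surface protein of mouse neutrophils, S100a8 and S100a9 form the abundant cytosolic protein calprotectin, and Csf3r is the receptor for the growth factor that drives granulocyte production. Mature neutrophils carry little RNA and few mitochondria and rely largely on glycolysis. In injured muscle they arrive before most monocytes.

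For each cell the table gives the count of unique molecular identifiers (UMIs, each marking 1 captured transcript), the number of genes with at least 1 UMI, and the share of UMIs from mitochondrial genes. It also gives 2 cell cycle scores, a phase call and a cluster number. The clusters were formed from the expression of the same cells, so every difference between clusters given here is a description. The comparison of mdx with cKO has no test either, since it sets 1 library against 1. Brackets after shares and ratios of shares give 95% intervals, which are exact binomial for shares and cover counting error only. Brackets marked as over bins give the lowest and highest bin instead. The libraries shared 20 barcode sequences, of which 4 belonged to a cell of cluster 7 or 9, and none belonged to such a cell in both libraries.

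Cluster 7 cells held little RNA, and cluster 9 cells held more. In mdx the median was 2149.5 UMIs per cell in cluster 7 (quartiles 1645 and 2878) and 5199 in cluster 9 (3904 and 6611). In cKO the medians were 1198 (921.5 and 1652) and 3310.5 (2412 and 4413). The median of cluster 9 was thus 2.42 times that of cluster 7 in mdx and 2.76 times in cKO. Cluster 7 had the lowest median of the 20 clusters in cKO and the second lowest in mdx, where B cell cluster 10 was lower at 1996. Cluster 9 lay in the middle, at rank 11 of 20 from the lowest in mdx and rank 8 in cKO.

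The ranges of the clusters overlapped. Single cells of cluster 7 reached 8039 UMIs in mdx and 6689 in cKO, and single cells of cluster 9 went down to 536 and 507. Few cells lay deep in the other cluster's range. Of cluster 7 cells, 2.34% in mdx and 1.91% in cKO exceeded the median of cluster 9. Of cluster 9 cells, 5.15% in mdx and 5.59% in cKO lay below the median of cluster 7. Of all pairs of 1 cell from each cluster, the cluster 9 cell had more UMIs in 90.2% of pairs in mdx and 90.9% in cKO. Cluster 13, in which nearly every cell had a high cell cycle score, continued the order with medians of 11969 and 7209 UMIs.

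**Figure D1:**
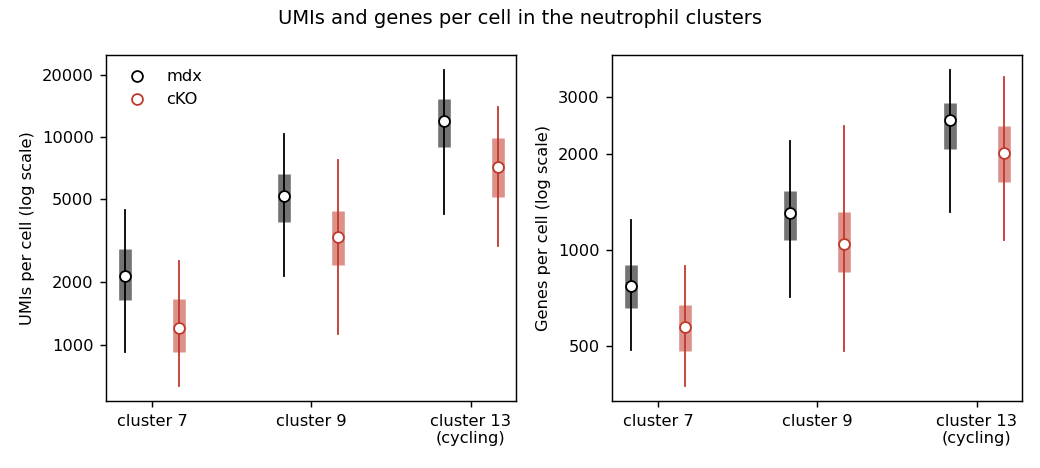
UMIs per cell (left, log scale) and genes per cell (right, log scale) in clusters 7, 9 and 13 for mdx (black) and cKO (red), where circles are medians, thick bars the quartiles and thin lines the 5th to 95th percentile over cells. Both measures rise from cluster 7 to 9 to 13 in each library, and mdx lies above cKO in each cluster, with median UMIs of 2149.5 and 1198 in cluster 7.

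Because the cells were small in RNA, these neutrophils took a lower share of UMIs than of cells. They made up 14.9% of mdx cells (14.1 to 15.8) but 9.0% of mdx UMIs. In cKO they made up 9.39% of cells (8.85 to 9.96) and 3.61% of UMIs. Cluster 7 alone was 8.94% of mdx cells and 3.50% of UMIs, and 6.37% and 1.57% in cKO. Cluster 9 took 5.50% of UMIs with 5.97% of cells in mdx, and 2.03% with 3.02% in cKO.

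Both clusters held more UMIs per cell in mdx than in cKO, by a ratio of medians of 1.79 in cluster 7 and 1.57 in cluster 9. Cluster 13 showed 1.66, and the macrophage clusters 1, 3, 4, 11 and 12 showed 1.33 to 1.63. The ratio was not the same across the table, since clusters 5, 6 and 14 showed 1.82, 2.44 and 1.84, while clusters 16, 17, 18 and 19 held fewer UMIs in mdx, at 0.673, 0.686, 0.666 and 0.927. Only 6.41% of cluster 7 cells in mdx (4.64 to 8.59) but 33.6% in cKO (30.03 to 37.3) had fewer than 1000 UMIs. In cluster 9 these shares were 1.41% (0.517 to 3.03) and 3.11% (1.50 to 5.64). The table holds no cell with 500 UMIs or fewer, so cluster 7 in cKO lay closest to the edge of what was kept. If mdx cells of cluster 7 held as few UMIs as those of cKO, in the ratio of their medians, 32 of the 640 would fall under that minimum, against 2 of 427 in cluster 9.

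The combined share was lower in cKO, with a ratio of the cKO to the mdx share of 0.630 (0.581 to 0.683). Among cells with at least 1000 UMIs the ratio was 0.515 (0.472 to 0.563). Taking away from every cluster the mdx cells that the scaling above would put under the minimum gave 0.636 (0.587 to 0.691). The ratio depended on the other cells counted. It was 0.923 (0.853 to 0.998) without macrophages in the denominator and 1.20 (1.12 to 1.29) without macrophages and stromal cells, so the direction turned, and these shares do not show whether the number of neutrophils in the muscle changed.

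Cluster 9 made up 40.0% of the cells of both clusters in mdx (37.1 to 43.0) and 32.2% in cKO (29.3 to 35.2). The size of this difference depended on the cells kept. The limits stated in the methods are 200 to 1800 genes and at most 20% mitochondrial UMIs. The deposited cells were not cut at them, with 105 to 7094 genes and at most 9.99% mitochondrial UMIs. Within these stated limits the shares were 37.5% in mdx (34.5 to 40.5) and 29.0% in cKO (26.2 to 32.03). Among cells with at least 1000 UMIs cluster 9 made up 41.3% in mdx (38.2 to 44.4) and 40.9% in cKO (37.4 to 44.5). Among cells with at least 500 genes the shares were 41.0% and 39.1%. A fixed minimum takes away more of cluster 7 in cKO, where 33.6% of its cells had under 1000 UMIs against 6.41% in mdx, and so raises the share of cluster 9 more in cKO.

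Between 2048 and 4096 UMIs as deposited, a cell was more often in cluster 9 in cKO than in mdx. Both clusters held more UMIs per cell in mdx, which these bins do not correct for. Between 2048 and 2896 UMIs, cluster 9 held 20 of 219 cells in mdx, or 9.13% (5.67 to 13.8), and 78 of 144 in cKO, or 54.2% (45.7 to 62.5). Between 2896 and 4096 UMIs it held 41.1% of cells in mdx (33.9 to 48.5) and 87.3% in cKO (79.2 to 93.0). Below 2048 UMIs the intervals of the libraries overlapped in each bin, and cluster 9 stayed at or under 20% in both, leaving out the 3 cKO cells under 512 UMIs. Weighted to the UMIs of the mdx cells, the cKO share of cluster 9 was 59.1%, against 37.0% of mdx cells in the same bins. With cKO UMIs first multiplied by 1.68, the geometric mean of the mdx to cKO ratios of both clusters, it was 37.2%, against 40.5%. This factor comes from the same clusters and draws their UMIs together, so the nearer shares decide nothing about the libraries.

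**Figure D2:**
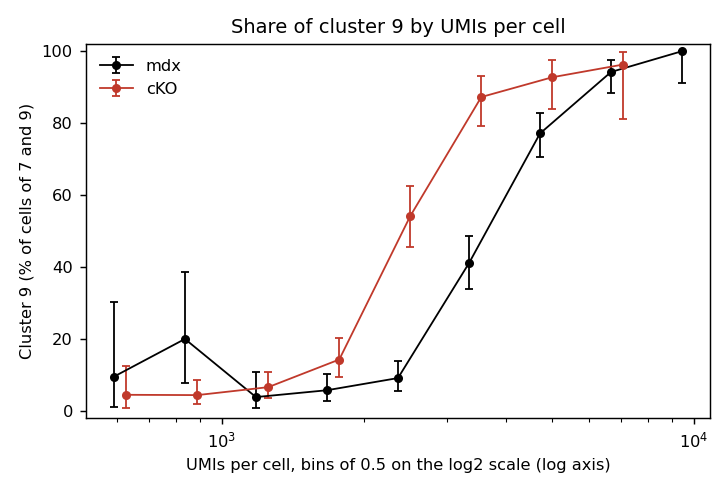
Share of cluster 9 among the cells of clusters 7 and 9 (y axis, percent) by UMIs per cell (x axis, log scale, bins with at least 10 cells) with mdx in black and cKO in red, and bars for exact 95% binomial intervals. Both curves climb from under 21% to over 94%, and cKO climbs at fewer UMIs, with 54.2% against 9.13% between 2048 and 2896 UMIs.

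The number of genes followed the UMIs. Cluster 7 had the fewest genes of the 20 clusters in both libraries, with a median of 770.5 in mdx (quartiles 658.8 and 900.0) and 575 in cKO (483 and 672.5). Cluster 9 had 1303 (1072 and 1529) and 1044 (851 and 1313), which was 1.69 and 1.82 times the median of cluster 7. Cluster 13 had 2543.5 and 2017.

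At a given UMI count, clusters 7 and 9 had nearly the same number of genes. Genes were compared within bins of 0.25 on the log2 scale of UMIs. The ratio of mean genes in cluster 9 to cluster 7 was 0.978 in mdx, from 0.878 to 1.00 over 5 bins. In cKO it was 1.01, from 1.00 to 1.02 over 4 bins. The bins spanned 2435.5 to 5793 UMIs in mdx and 1448 to 2896 in cKO. Past them in cKO, between 2896 and 4096 UMIs, cluster 7 averaged 1171 genes (13 cells) and cluster 9 averaged 1086 (89 cells). Between 2000 and 3000 UMIs, cluster 7 had 805.6 ± 86.6 genes in mdx (SD over 223 cells) and 847.6 ± 101.9 in cKO (75 cells). Cluster 9 had 836.4 ± 88.1 (28 cells) and 889.5 ± 115 (85 cells) in that range, in which its cells averaged 2572 and 2527 UMIs against 2396 and 2355 in cluster 7.

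The other clusters with a value, apart from 13, averaged more genes for the same UMIs. Clusters 7 and 9 were the lowest of the 13 mdx clusters and of the 17 cKO clusters with at least 10 cells between 2000 and 3000 UMIs, where the clusters other than 7 and 9 averaged 966.3 to 1218 genes in mdx and 1011 to 1282 in cKO. Macrophages outside cluster 11, the cycling macrophages, had 1051 ± 205 genes there in mdx (SD over 36 cells) and 1169 ± 139 in cKO (296 cells). In the bins, the clusters other than 13 had 1.16 to 1.58 times the genes of cluster 7 in mdx and 1.17 to 1.45 times in cKO. They had 1.13 to 1.62 times and 1.19 to 1.36 times those of cluster 9. Cluster 13 stood nearest to cluster 9, at 1.10 times its genes in mdx (1.05 to 1.13 over 4 bins). In cKO it was nearly level at 1.02 times, and lower in some bins (0.875 to 1.18 over 5 bins). Cluster 13 had too few cells between 2000 and 3000 UMIs to be ranked. A low number of genes per UMI means that a cell's UMIs were concentrated on fewer genes, but which genes cannot be read from the table.

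Between the libraries, genes at matched UMIs averaged nearly level in cluster 7 and were fewer in mdx in cluster 9. The ratio of mdx to cKO was 1.01 in cluster 7 (0.928 to 1.06 over 8 bins) and 0.875 in cluster 9 (0.708 to 0.953 over 7 bins). In the other 14 clusters with a value it ran from 0.899 to 0.987. Cluster 7 thus had the highest ratio and cluster 9 the lowest of 16 clusters, each over its own range of UMIs. That range was 512 to 2896 UMIs in cluster 7 and 2435.5 to 8192 in cluster 9. Between 2048 and 2896 UMIs mean genes in mdx and cKO were 804.7 and 851.7 in cluster 7, and 821.7 and 886.7 in cluster 9. Between 2896 and 4096 UMIs they were 985.4 and 1171 (13 cKO cells) in cluster 7, and 1009 and 1086 in cluster 9. In cluster 7 mdx had more genes between 1448 and 2048 UMIs, at 704.7 against 673.25. Among cells with under 2% mitochondrial UMIs the ratio was 0.939 in cluster 9 (0.923 to 0.958 over 5 bins) and 1.02 in cluster 7. In cluster 13 it was 0.883, from 1 bin. The other clusters gave no value, since none had a bin with at least 10 such cells of each library. No interval is given for these ratios, which compare 2 libraries.

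**Figure D3:**
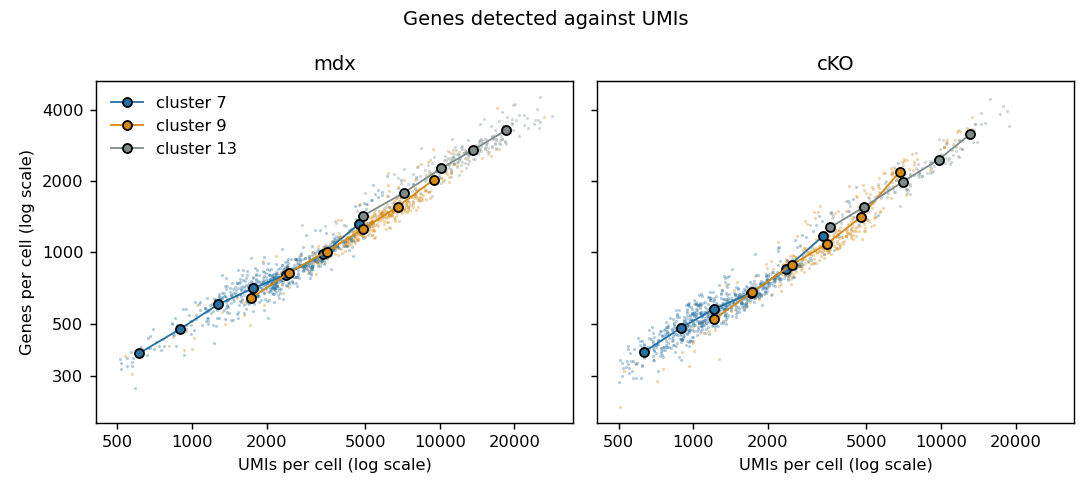
Genes per cell (y axis, log scale) against UMIs per cell (x axis, log scale) in mdx (left) and cKO (right), where small points are cells and large points the means of bins of 0.5 on the log2 scale with at least 10 cells, coloured by cluster. Clusters 7 and 9 lie near each other over the bins that were matched, with ratios of cluster 9 to 7 of 0.978 in mdx and 1.01 in cKO. Between 2896 and 4096 UMIs, past the matched bins of cKO, cluster 7 lies higher there, at 1171 against 1086 genes. Cluster 9 in cKO bends upward above 4096 UMIs.

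Very low mitochondrial shares marked both clusters. The median share of UMIs from mitochondrial genes was 0.377% in mdx (quartiles 0.232 and 0.605) and 0.457% in cKO (0.286 and 0.785) in cluster 7. In cluster 9 it was 0.832% (0.546 and 1.18) and 0.895% (0.586 and 1.73), and in cluster 13 it was 1.77% and 1.89%. The medians of the other 17 clusters ran from 2.98% to 6.13% in mdx and from 1.58% to 5.96% in cKO, where the lowest, cluster 6, had only 43 cells and the next was 3.12%. The order from cluster 7 to 9 to 13 was the same as that of the UMIs.

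In counts, the median cell of cluster 7 held 8 mitochondrial UMIs in mdx and 6 in cKO, so its share rests on few molecules. The median cell of cluster 9 held 41 and 28, and that of cluster 13 held 205 and 125. No mitochondrial UMI at all was found in 31 cells of the table, of which 21 were in cluster 7 and 1 in cluster 9. In mdx, 0 of 427 cells of cluster 9 lacked one, which allows a share of up to 0.703%. Here and below, the limit for a count of 0 is 3 divided by the number of cells. It is not the exact binomial limit used in the brackets.

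Under 1% mitochondrial UMIs lay 87.5% of cluster 7 cells in mdx (84.7 to 90.0) and 84.7% in cKO (81.8 to 87.3). In cluster 9 the shares were 63.7% (58.9 to 68.3) and 54.7% (49.0 to 60.2), and in cluster 13 they were 12.3% (8.45 to 17.1) and 12.3% (7.66 to 18.3). All cells outside these 3 clusters together had 1.09% in mdx and 1.10% in cKO. Of the 1801 cells under 1% in the table, clusters 7 and 9 held 1583, or 87.9% (86.3 to 89.4). Under 0.5% they held 933 of 1020, or 91.5%.

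The difference between clusters 7 and 9 was kept in part at matched UMIs. Shares of cells under 1% were averaged over the bins both clusters filled, with the smaller set as weight. They came to 84.6% in cluster 7 and 78.5% in cluster 9 of mdx, and 89.1% and 66.6% in cKO. Bin medians of the mitochondrial share, averaged likewise, were 0.558% and 0.636% in mdx, and 0.446% and 0.709% in cKO. The gap was thus smaller in mdx than in cKO, and its difference between the libraries was not tested.

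Within each cluster the share of cells under 1% was highest at intermediate UMIs. In cluster 7 of mdx it was 21.1% between 512 and 724 UMIs (4 of 19 cells), 95.5% between 2048 and 2896 (190 of 199) and 72.1% between 4096 and 5793 (31 of 43). In cluster 7 of cKO it was 71.9% between 512 and 724 UMIs (46 of 64) and 90.9% between 2048 and 2896 (60 of 66). In cluster 9 of mdx it was 78.9% between 2896 and 4096 UMIs (60 of 76) and 30% between 8192 and 11585 (12 of 40). In cluster 9 of cKO it was 74.2% between 2896 and 4096 UMIs (66 of 89) and 11.5% between 5793 and 8192 (3 of 26).

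**Figure D4:**
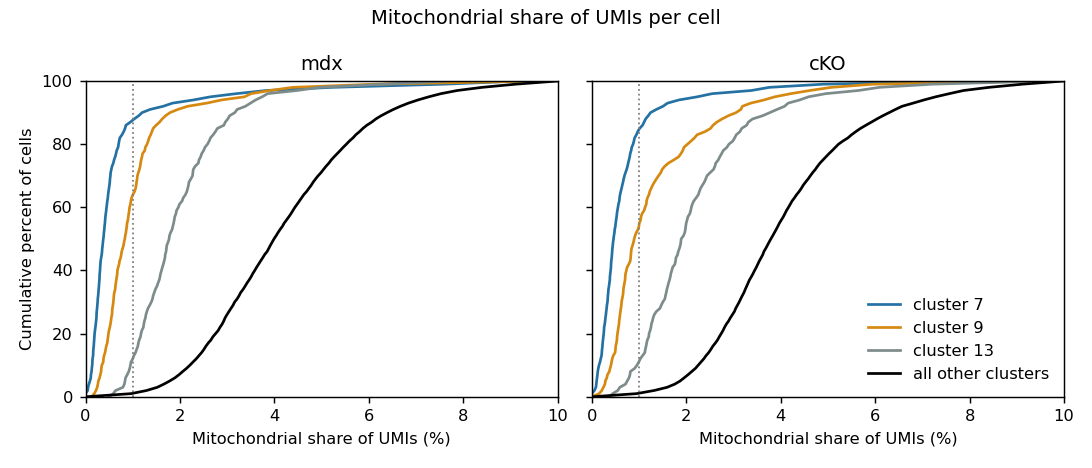
Cumulative percent of cells (y axis) by mitochondrial share of UMIs (x axis, percent) in mdx (left) and cKO (right) for clusters 7, 9 and 13 and all other clusters together, where the dotted line marks 1%. Cluster 7 lies farthest left, with 87.5% and 84.7% of cells under 1%, followed by cluster 9 with 63.7% and 54.7%, and the other clusters reach about 1% there.

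Between clusters 7 and 9, a higher mitochondrial share was most frequent in cluster 9 of cKO. At 2% or more lay 65 of its 322 cells, or 20.2% (15.9 to 24.99), against 37 of 427 in mdx, or 8.67% (6.17 to 11.7), a ratio of 2.33 (1.60 to 3.40). In cluster 7 the shares were 5.45% in cKO (3.87 to 7.43) and 6.25% in mdx (4.50 to 8.41). Cluster 13 had larger shares there, of 44.8% in cKO and 38.9% in mdx.

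These cells also differed in UMIs and genes. In cluster 9 of cKO the cells at 2% or more had a median of 5267 UMIs and 1869 genes, and those under 1% had 3007.5 UMIs and 987 genes. More than 1800 genes were found in 36 of these 65 cells and in 0 of the 176 cells under 1%. Between 4000 and 8000 UMIs the cKO cells at 2% or more had 2047 ± 301 genes (SD over 27 cells) and those under 1% had 1309 ± 166 (29 cells), with means of 6005 and 4769 UMIs. In mdx the same range gave 1619 ± 379 genes (10 cells) and 1336 ± 168 genes (175 cells), with means of 5981 and 5499 UMIs. Matched in bins of 1 on the log2 scale of UMIs with at least 5 cells of each kind, cells at 2% or more had 1.37 times the genes of cells under 1% in cluster 9 of cKO (1.06 to 1.57 over 3 bins). The ratio was 1.16 in cluster 9 of mdx (1.09 to 1.21 over 3 bins). In cluster 7 it was 1.13 in cKO (0.921 to 1.40 over 3 bins) and 1.09 in mdx (0.837 to 1.43 over 4 bins). A mitochondrial share of 2% or more was the rule elsewhere in the table, where 93.3% of the cells outside clusters 7, 9 and 13 had it. No doublets were called, and the part of cells captured together in these values was not tested.

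The phase calls put most of these neutrophils in G2M, the stage before and at division, while the scores themselves were near 0. Cluster 7 had 64.5% of its mdx cells called G2M (60.7 to 68.2) and 59.1% in cKO (55.3 to 62.8). In cluster 9 the shares were 58.8% (54.0 to 63.5) and 56.8% (51.2 to 62.3). These were the highest after cluster 13, which had 79.1% in both libraries, and lay above the cycling macrophages of cluster 11, with 57.3% and 53.1%. G1 calls, given to cells with both scores below 0, made up 26.9% and 29.7% of cluster 7 and 35.8% and 35.4% of cluster 9. In macrophages outside cluster 11 they made up 78.1% and 75.3%.

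The higher of the scores decides the call where either is above 0, a rule that held in all 17813 cells. The median G2M score was 0.0196 in mdx and 0.0170 in cKO in cluster 7, and 0.0105 and 0.00869 in cluster 9. It was 0.629 and 0.701 in cluster 13 and 0.456 and 0.459 in cluster 11. Clusters 14 and 15 also had small positive medians, of 0.0563 and 0.0276 in mdx and 0.0499 and 0.0419 in cKO, with 41.7% and 45.2% of cells called G2M in mdx and 43.6% and 41.5% in cKO. In the other 14 clusters the median lay below 0, from -0.109 to -0.0230 in mdx and from -0.108 to -0.0150 in cKO. The small positive values of clusters 7 and 9 thus set their calls. At matched UMIs the weighted average of bin medians of the G2M score was 0.0179 in mdx and 0.0243 in cKO in cluster 7. In cluster 9 it was 0.0122 and 0.00914. In cluster 7 the order of the libraries changed between bins of 0.5 on the log2 scale. Its median was 0.0191 in mdx and 0.0284 in cKO between 1448 and 2048 UMIs, but 0.0260 and 0.0233 between 2048 and 2896. These small differences were not tested. The median S scores were all below 0, between -0.0441 and -0.0411 in both clusters and libraries.

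High scores were rare. The higher of the scores was above 0.2 in 1 of 640 mdx cells and 1 of 679 cKO cells of cluster 7, or 0.156% (0.00396 to 0.867) and 0.147% (0.00373 to 0.818). In cluster 9 it was above 0.2 in 3 of 427 and 3 of 322 cells, or 0.703% (0.145 to 2.04) and 0.932% (0.193 to 2.70). In cluster 13 the shares were 98.0% and 96.9%. Above 0.3 lay 0 of 640 and 0 of 679 cells of cluster 7, which allows up to 0.469% and 0.442%, and 1 and 2 cells of cluster 9. The highest G2M score of the 8 cells above 0.2 was 0.559, in a cluster 9 cell of mdx with 1939 UMIs, and the highest S score was 0.316, in a cluster 9 cell of cKO with 13363 UMIs and 3735 genes. The phase calls alone therefore do not show division in clusters 7 and 9.

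**Figure D5:**
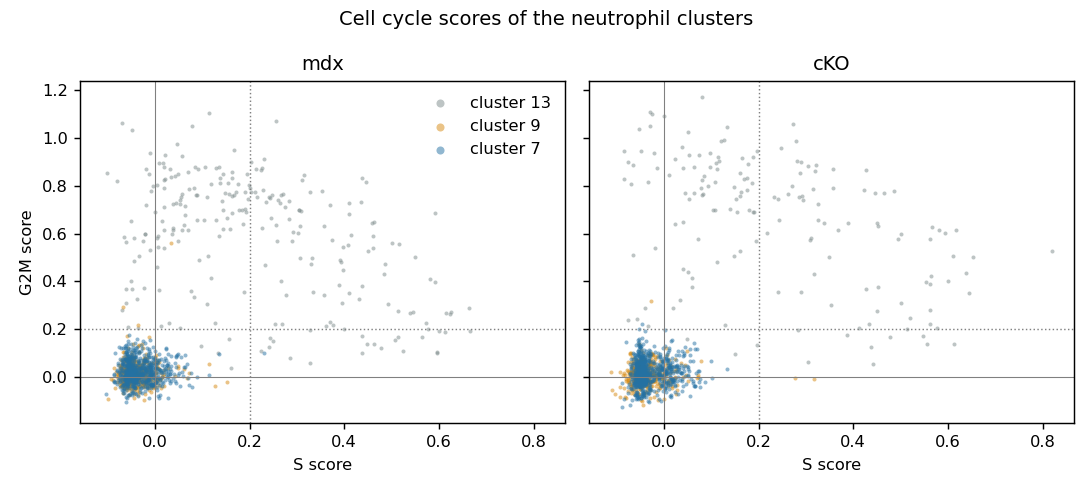
G2M score (y axis) against S score (x axis) of each cell of clusters 7, 9 and 13 in mdx (left) and cKO (right), where full lines mark 0 and dotted lines 0.2. Clusters 7 and 9 form 1 compact group around 0 that straddles the line for G2M, with 8 cells above 0.2 on either score, and cluster 13 spreads above it.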

How the data were processed

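Mononucleated cells of limb and diaphragm muscle were captured with 10x Genomics 3' chemistry. Cell Ranger 7 and mm10 appear in the submitters' processing notes, and the authors filtered, normalized and clustered the cells in Seurat. UMIs and genes per cell are deposited as unnormalized counts. The deposited mitochondrial fraction was expressed here in percent, and multiplied by the UMIs it gave whole numbers in all 17813 cells. The deposited S and G2M values are each a score, whose computation the methods do not describe. Library names were read as Cre-positive (cKO) and Cre-negative (mdx).

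Quartiles, shares with Clopper-Pearson intervals and ratios with log intervals were computed here (Python 3.11.15; SciPy 1.17.1; pandas 2.3.3). Genes at matched UMIs were compared in bins with at least 10 cells of each set, averaged on the log scale with the smaller set as weight, and the method was tested on simulated data. Shares and medians at matched UMIs were averaged over bins with the same weight, but not on the log scale. Thinning of cells was not done, as it needs counts per gene. Clusters 7 and 9 held 3888351 UMIs in mdx and 2137158 in cKO. The rule for named genes takes genes with values in the table, so none is named with a value. The clusters, thresholds and cell type assignments were chosen with earlier results of these data known.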

Additional observations from a re-analysis of the deposited data

How the results depend on the processing

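Of 122 values recomputed under alternatives, 70 stayed within the limits of the main value. These limits were the counting interval for shares, an order-statistic interval for medians and the range over bins for matched genes. Some alternatives, such as means for medians, are other quantities, so this count does not measure stability. The combined share of clusters 7 and 9 moved with the cells counted. In mdx it was 22.4% within the limits stated in the methods, 22.8% among immune cells, 18.5% without macrophages and 29.2% without macrophages and stromal cells. In cKO these were 18.2%, 13.97%, 17.04% and 35.1%, and it was 7.53% with at least 1000 UMIs and 7.57% with at least 500 genes. The cKO to mdx ratio was 0.515 and 0.522 under the UMI and gene minimums and 0.811 within the limits of the methods. It was 0.613 among immune cells, 0.923 without macrophages and 1.20 without macrophages and stromal cells.

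Cluster 9 as a share of both clusters in cKO was 40.9% with at least 1000 UMIs, 39.1% with at least 500 genes, 29.0% within the limits of the methods, and 59.1% or, with scaled UMIs, 37.2% at the mdx UMI counts. Means in place of medians gave 2362 and 1373 UMIs in cluster 7 and 5565 and 3742 in cluster 9 (mdx and cKO), 807.5 and 602.4 genes in cluster 7, and 1189 genes in cluster 9 of cKO. Among cells with under 2% mitochondrial UMIs, genes at matched UMIs in cluster 9 over cluster 7 came to 1.02 in cKO.

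Under 0.5% mitochondrial UMIs lay 66.1% and 54.3% of cluster 7 and 21.3% and 15.5% of cluster 9 (mdx and cKO), and under 2% lay 93.8%, 94.6%, 91.3% and 79.8%. The share under 1% in cluster 7 of mdx was 90.3% with at least 1000 UMIs and 90.5% with at least 500 genes. In cluster 9 it was 68.6% and 63.5% within the limits of the methods. Averaged over bins at matched UMIs, the share under 1% was 84.6% and 89.1% in cluster 7 and 78.5% and 66.6% in cluster 9. A score above 0.1 was found in 7.34% and 7.81% of cluster 7 and 4.22% and 3.42% of cluster 9. A score above 0.3 was found in 0% of cluster 7 in both libraries. A score above 0.2 was found in 0% of cluster 7 of mdx with at least 1000 UMIs and in 0% with at least 500 genes, where 0 of 599 cells allows up to 0.501%.

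The cause of these changes was not tested. The alternatives without macrophages and stromal cells, at mdx UMI counts, at matched UMIs and under 2% were chosen after seeing the data. No paired analysis was possible because each genotype has 1 library. Counting intervals do not cover variation between mice, the few mitochondrial UMIs per cell limit the shares of cluster 7, and no gene's expression was analysed here.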

Other observations

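In cKO, cluster 6, assigned to stromal cells, was the other place where very low mitochondrial shares were frequent. Of its 43 cells, 19 lay under 1%, with medians of 995 UMIs, 554 genes and 0.207% mitochondrial UMIs, and 6 of them were called G2M. The other 24 had medians of 1595.5 UMIs, 692.5 genes and 4.26%, and 2 of them were called G2M. The difference was not tested.

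G2M calls in both clusters were least frequent among cells with 2% or more mitochondrial UMIs. In cluster 9 of cKO, 69.3% of cells under 1%, 50.6% of cells from 1% to under 2% and 30.8% of cells at 2% or more were called G2M. In cluster 9 of mdx the shares were 59.2%, 63.6% and 40.5%, so the middle class was the highest. In cluster 7 they were 66.2%, 60% and 45% in mdx and 60.9%, 50.7% and 45.9% in cKO. The part of UMIs per cell in these shares was not tested.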
